A study of Homo sapiens with 4 samples.

Results

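The genes studied were 9 that encode surface antigens used or tested as therapy targets in prostate cancer (FOLH1, STEAP1, STEAP2, PSCA, CEACAM5, CD276, ERBB2, SSTR2 and CD24), chosen by symbol from a table of 16376 genes. Of the 9 members, 7 had a row. PSCA and CEACAM5 had none, so their levels were not analysed here. RNA was measured by sequencing of polyadenylated RNA in LASCPC-01 cells, a single human line of neuroendocrine prostate cancer. The line derives from benign prostate epithelium that was given N-Myc together with active AKT1, and its genotype is labelled WT. The comparison is between 2 libraries of cells given PBS and 2 of cells given ketotifen, an H1 antihistamine and mast cell stabiliser, all at day 3; no dose is in the labels used here, and the ketotifen columns carry a 5 that the labels do not explain. All cells carry the 2 transforming genes, so no group shows the antigens without them.

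Surface antigens serve as docking points for antibodies, drug conjugates, radioligands and engineered T cells, so the level of the antigen on the tumour cell bears on whether such an agent can bind. FOLH1, which encodes prostate-specific membrane antigen, and the STEAP proteins are typical of luminal prostate adenocarcinoma. Neuroendocrine tumours often lose these luminal antigens and are instead approached through receptors such as SSTR2 or the Notch ligand DLL3. The present values are of RNA, and protein at the cell surface was not measured.

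The promoters of members at opposite ends of the expression range are shown first, because the members differed far more from each other in level than any member did between treatments. Of the 9 members, 7 were matched by symbol in the RefSeq promoter table (GRCh38.p14), with 11 entries. FOLH1 and PSCA were not matched. Below are the 250 bases before the annotated start of CD24, the member with the highest level, of ERBB2, next in order, and of STEAP1 and STEAP2, which were near the limit of detection. Each is written 5′ to 3′ on the strand of the gene, and capitals mark every CpG dinucleotide, the site of DNA methylation. The positions are chr6:106975628-106975877 (minus strand) for CD24, chr17:39687844-39688093 for ERBB2, chr7:90154219-90154468 for STEAP1 and chr7:90211490-90211739 for STEAP2 (the last 3 on the plus strand).
CD24: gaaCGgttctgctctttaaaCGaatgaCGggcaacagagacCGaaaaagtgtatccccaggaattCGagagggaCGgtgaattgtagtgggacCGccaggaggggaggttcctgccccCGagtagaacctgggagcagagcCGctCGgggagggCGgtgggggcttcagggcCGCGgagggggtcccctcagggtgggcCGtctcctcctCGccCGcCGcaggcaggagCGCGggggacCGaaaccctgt
ERBB2: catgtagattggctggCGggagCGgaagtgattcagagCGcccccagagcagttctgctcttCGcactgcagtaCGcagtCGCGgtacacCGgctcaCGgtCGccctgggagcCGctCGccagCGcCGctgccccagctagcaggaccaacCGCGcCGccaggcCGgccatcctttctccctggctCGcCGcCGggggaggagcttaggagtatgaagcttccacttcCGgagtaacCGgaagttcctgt
STEAP1: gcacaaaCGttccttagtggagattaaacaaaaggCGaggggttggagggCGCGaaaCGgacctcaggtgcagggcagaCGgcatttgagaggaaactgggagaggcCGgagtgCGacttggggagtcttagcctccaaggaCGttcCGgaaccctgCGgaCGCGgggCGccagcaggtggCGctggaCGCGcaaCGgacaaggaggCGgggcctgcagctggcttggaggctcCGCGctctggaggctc
STEAP2: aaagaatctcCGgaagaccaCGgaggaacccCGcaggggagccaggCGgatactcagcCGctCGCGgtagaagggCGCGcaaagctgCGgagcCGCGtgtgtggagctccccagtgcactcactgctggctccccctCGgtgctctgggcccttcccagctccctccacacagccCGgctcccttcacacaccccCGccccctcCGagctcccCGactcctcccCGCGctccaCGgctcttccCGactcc
CD24 held 20 CpGs in this window, ERBB2 23, STEAP1 21 and STEAP2 21. The number of CpGs was thus alike in members at high and at very low level. SSTR2 had 20 CpGs, and the entries of CD276, at 2 starts, had 29 and 23. CD24 had 2 further starts with 27 and 17 CpGs, and STEAP2 a further start with 2. Across all 35116 promoters of the table the median was 11, and it was 21 where the gene's mean reached 1 FPKM and 9 where it was under 0.2 FPKM. FPKM is the number of fragments per kilobase of gene, scaled to the depth of the library. The E-box CACGTG, a sequence bound by MYC family proteins and its own reverse complement, was in none of the windows of the 6 matched members that had a row. The window of CEACAM5, matched but without a row, held 1. Of all promoters 6.34% held it. The GC box GGGCGG, searched on both strands and not overlapping the E-box letters, was in at least 1 window of CD24, STEAP2, CD276 and SSTR2. In CD24 and in STEAP2, 1 window lacked it. Its share was 42.6% of all promoters, and 65.0% where the gene's mean reached 1 FPKM. These matches describe letters in the windows only.

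The members ranged in mean level from 41.8 FPKM (CD24) to 0.00164 FPKM (STEAP2). CD24 was expressed highly, ERBB2, CD276 and SSTR2 at low to moderate levels, and STEAP1, FOLH1 and STEAP2 by a few fragments per library. Whole fragment counts could be recovered from the FPKM values, as described in the processing section, and the depths were 32873603 and 34756748 fragments for PBS libraries A and B and 36703851 and 33767082 for ketotifen libraries A and B. Exact 95% Poisson intervals are given for single libraries, and they cover counting error only. In the order of mean FPKM, each member was above the next in all 4 libraries, except FOLH1 and STEAP2, whose ranges overlapped.

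**Figure D1:**
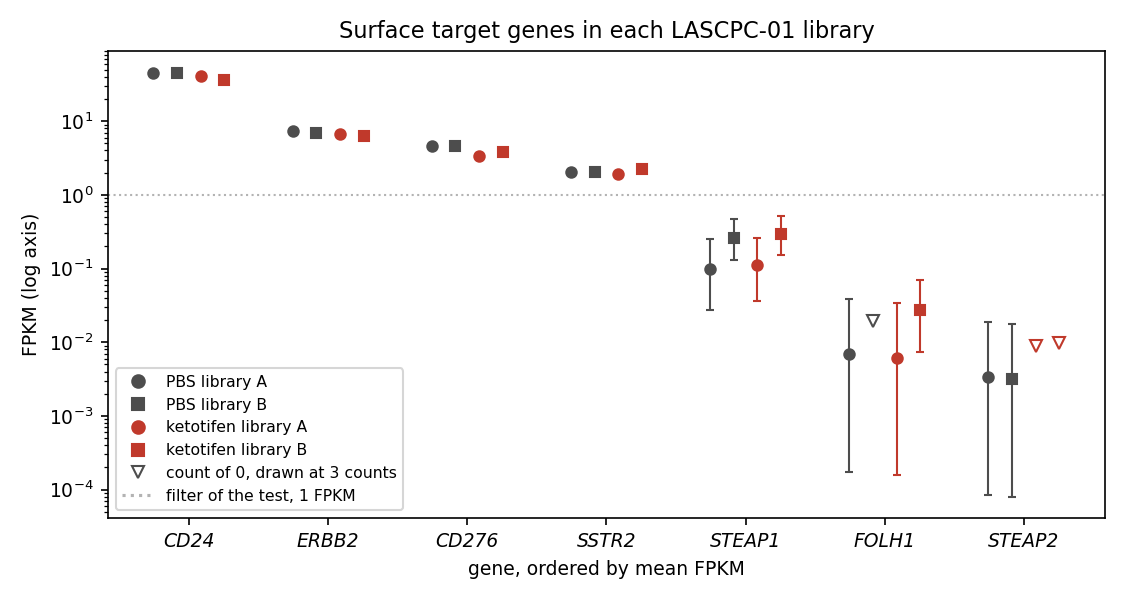
FPKM (log axis) of the 7 members with a row in each of the 4 libraries; points are single libraries, bars are exact 95% Poisson intervals of the count, and open triangles stand for a count of 0, drawn at the FPKM of 3 counts. CD24 lies at 36.7 to 45.2 FPKM, ERBB2, CD276 and SSTR2 between 1.89 and 7.39, and the other 3 below 0.3 FPKM in every library.

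CD24 encodes a short, heavily glycosylated protein held in the membrane by a glycosylphosphatidylinositol (GPI) anchor, and is a ligand of the inhibitory receptor Siglec-10 on macrophages. The gene lies on chromosome 6 (106969831 to 106976855, GRCh38). It was at 45.2 and 44.8 FPKM in PBS libraries A and B and at 40.7 and 36.7 FPKM in ketotifen libraries A and B. Both ketotifen libraries were below both PBS libraries. The mean level ranked 1632 of all genes in the table, above 90.0% of them. The PBS libraries lay within each other's counting error (43.9 to 46.5 and 43.6 to 46.1 FPKM), whereas the ketotifen libraries did not (39.5 to 41.8 and 35.6 to 37.9 FPKM). CD24 has processed pseudogenes of near-identical sequence, so reads that fit more than 1 copy may have been lost or misassigned in counting.

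ERBB2, the receptor tyrosine kinase HER2, has no ligand of its own and signals through dimers with other ERBB receptors. It lies on chromosome 17 (39688094 to 39728658). Its levels were 7.39 and 6.87 FPKM with PBS and 6.68 and 6.21 FPKM with ketotifen, from 1260 to 1473 fragments per library. The groups did not overlap, but the gap between PBS library B and ketotifen library A was smaller than the gap between the libraries within either group. The mean of ERBB2 was 6.79 FPKM, and CD24 was 5.91 to 6.52 times higher per library.

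CD276 encodes B7-H3, an immune checkpoint protein of the B7 family found on many carcinomas and their stroma. It lies on chromosome 15 (73683944 to 73714514). The 4 libraries gave 4.57 and 4.68 FPKM with PBS and 3.36 and 3.80 FPKM with ketotifen. Again both ketotifen libraries were lower. Within each group the counting intervals overlapped. The ketotifen intervals were 3.06 to 3.67 and 3.47 to 4.15 FPKM, and neither reached an interval of the PBS libraries. ERBB2 was 1.47 to 1.99 times as high as CD276 in the same library.

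SSTR2 is the inhibitory G protein-coupled receptor for somatostatin that radiolabelled somatostatin analogues bind. It lies on chromosome 17 (73165010 to 73176633). It was at 2.03 and 2.01 FPKM with PBS and at 1.89 and 2.27 FPKM with ketotifen, from 512 to 589 fragments per library. The ketotifen libraries lay on either side of the PBS libraries. Their counting intervals (1.74 to 2.06 and 2.09 to 2.46 FPKM) did not meet, so the spread within ketotifen was larger than counting error.

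STEAP1, a member of the six-transmembrane family of metalloreductases and the target of T-cell engaging antibodies, lies on chromosome 7 (90154469 to 90164827). PBS libraries A and B gave 4 and 11 fragments and ketotifen libraries A and B 5 and 12, or 0.0998, 0.260, 0.112 and 0.292 FPKM. The B library was the higher one in both groups, and the counting intervals of A and B overlapped in each (0.0272 to 0.256 and 0.130 to 0.465 FPKM with PBS, 0.0363 to 0.261 and 0.151 to 0.509 FPKM with ketotifen). The total was 15 fragments with PBS and 17 with ketotifen. STEAP2, its neighbour on chromosome 7 (90211740 to 90243408), gave 1 fragment in each PBS library and none in the ketotifen libraries, where a count of 0 allows up to 0.00903 and 0.00982 FPKM (3 counts per library, a lower limit than the upper end of the Poisson interval, 0.0111 and 0.0121 FPKM). FOLH1, a carboxypeptidase that cleaves folate polyglutamates and the target of prostate radioligands, lies on chromosome 11 (49145092 to 49208602). It gave 1 and 0 fragments with PBS and 1 and 4 with ketotifen, and its highest level was 0.0270 FPKM. No difference between groups was detectable for these 3 genes at this depth, and none was tested. FOLH1 has a near-identical copy, FOLH1B, which was listed at 0 in all libraries, so reads that fit both could have been left out of either.

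Of the 7 members with a row, 4 reached the mean of 1 FPKM set for the test, and none passed it between ketotifen and PBS. By limma on log2(FPKM + 1) with adjustment over all 10586 tested genes, 0.123% of genes were called (0.113% lower and 0.00945% higher), so 0 of 4 is what that share would give. Fewer cells with a gene and less RNA per cell cannot be told apart in bulk libraries such as these. At an unadjusted p under 0.05, 2 of the 4 (CD24 and CD276) passed, both lower, beside 20.4% of all tested genes (10.3% lower). With voom on the recovered counts, which called 7.53% of genes (3.84% lower and 3.69% higher), 1 of the 4 fell, CD24. The smallest p an exact permutation test of a single gene can give with 2 against 2 libraries is 0.333, so none was made.

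CD276 had the most negative change of the 4. Its mean was 4.62 ± 0.0773 FPKM with PBS and 3.58 ± 0.311 with ketotifen (SD, n = 2 libraries each), 22.6% lower. On the log2(FPKM + 1) scale the change was -0.30 ± 0.08 (SE), with a 95% interval of -0.48 to -0.11 and a limma adjusted p of 0.126. Of all tested genes, 1.67% had a lower change. With voom it was -0.38, with an interval of -0.63 to -0.12 and an adjusted p of 0.0648. Without PBS library A, limma called CD276 lower (adjusted p = 0.0334), but that fit called 1936 of 10586 genes. It leaves 1 PBS library, which is assumed to vary like the ketotifen libraries.

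CD24 went from 45.0 ± 0.264 to 38.7 ± 2.78 FPKM (SD, n = 2 each), 14.0% lower with ketotifen. Its log2 change was -0.21 ± 0.06 (SE), with an interval of -0.36 to -0.07 and a limma adjusted p of 0.147. Voom gave -0.22 with an interval of -0.34 to -0.09 and called it lower (adjusted p = 0.0322). Without ketotifen library B the change was -0.14 (limma adjusted p = 0.541), and without ketotifen library A it was -0.29 (adjusted p = 0.324). The fit without PBS library A, with 1 PBS library and 1936 genes called, also called it lower (limma adjusted p = 0.0274).

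ERBB2 went from 7.13 ± 0.371 to 6.45 ± 0.332 FPKM (SD, n = 2 each), a log2 change of -0.13 ± 0.07 (SE) with an interval of -0.29 to 0.04 (limma adjusted p = 0.361). SSTR2 had 2.02 ± 0.00881 and 2.08 ± 0.266 FPKM, a log2 change of 0.03 ± 0.09 (SE) with an interval of -0.19 to 0.24 (limma adjusted p = 0.895). The interval of ERBB2 holds both no change and the change measured for CD24. The sign of the SSTR2 change flipped when libraries were scaled to the same sum (-0.0092) and without ketotifen library B (-0.062).

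**Figure D2:**
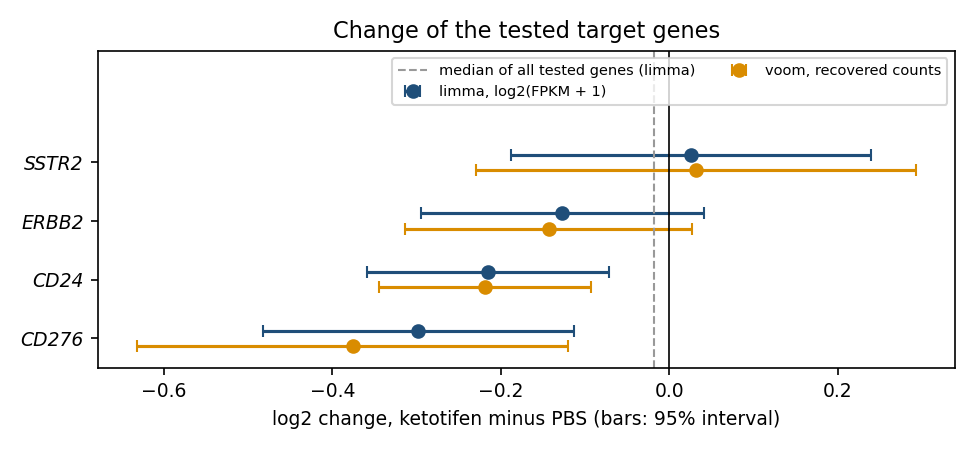
Log2 change, ketotifen minus PBS, of the 4 tested members with its 95% interval, from limma on log2(FPKM + 1) and from voom on recovered counts (2 libraries per group). The intervals of CD276 and CD24 lie below 0 by both methods, and those of ERBB2 and SSTR2 include 0.

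The median change of the 4 was -0.17, against -0.02 over all tested genes. Both ketotifen libraries were below both PBS libraries in 3 of the 4 (CD24, CD276 and ERBB2), a pattern that 31.2% of all tested genes also had, while 23.2% had both ketotifen libraries above. The change was negative in 3 of the 4 and in 55.7% of all tested genes. A change of -0.2 or lower was found for CD24 and CD276 and for 6.74% of all tested genes. With 4 genes these shares describe the members and test nothing about them as a set.

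**Figure D3:**
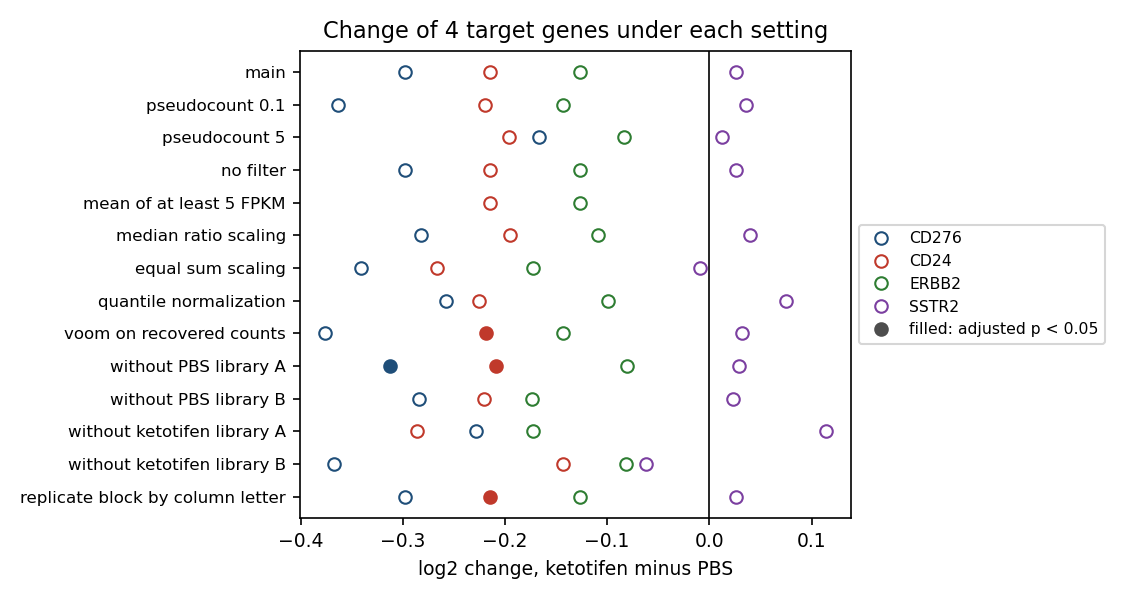
Log2 change, ketotifen minus PBS, of CD276, CD24, ERBB2 and SSTR2 (axis across) under the reported fit and 13 other settings (rows); filled points passed an adjusted p of 0.05. CD276, CD24 and ERBB2 stay below 0 in each setting that tested them, and SSTR2 crosses it.

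By the root mean square difference of centred log2(FPKM + 1) over the 4 libraries, the genes whose pattern was most like that of CD24 were PHKB (24.2, 24.1, 21.6 and 19.6 FPKM in PBS A, PBS B, ketotifen A and ketotifen B), STX17 (11.0, 10.9, 9.84 and 8.89 FPKM) and SGMS1 (3.41, 3.40, 2.95 and 2.56 FPKM). With 4 libraries 313 of 10585 genes came within 0.05 of CD24 by this measure, so the pattern was not particular to CD24.

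Each member was next set beside its gene family, since relatives share structure and ligands. In the STEAP family the level lay in STEAP3, an endosomal ferrireductase that acts in transferrin iron uptake. STEAP3 was at 38.7 and 36.1 FPKM with PBS and 40.4 and 39.0 FPKM with ketotifen, 134 to 388 times the level of STEAP1 in the same library. Its change was 0.08 (limma adjusted p = 0.438). STEAP4 and STEAP1B had no row and were not analysed here.

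Among the ERBB receptors ERBB3, the kinase-impaired partner of ERBB2, was highest, at 20.1 and 18.6 FPKM with PBS and 19.1 and 19.5 FPKM with ketotifen. It was 2.71 to 3.13 times as high as ERBB2. ERBB4 lay at 1.47 to 1.66 FPKM. EGFR had 17 and 19 fragments with PBS and 4 and 3 with ketotifen. These EGFR counts did not overlap between groups, and at a mean under 1 FPKM they were not tested. Of 3 receptors tested none was called by limma (0.123% of all tested genes) or voom (7.53%).

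Of 11 ERBB ligands, 10 had a row and 4 were tested; limma called none, and voom called 1 lower (3.84% of all tested genes). The highest were HBEGF, which binds EGFR and ERBB4, at 11.8 and 14.9 FPKM with PBS and 12.1 and 12.9 FPKM with ketotifen, and TGFA, an EGFR ligand, at 6.02 to 7.19 FPKM. The gene that fell by voom was NRG4, an ERBB4 ligand, from 1.34 and 1.29 FPKM to 0.977 and 0.949 FPKM (voom adjusted p = 0.0092, limma adjusted p = 0.206). NRG1, an ERBB3 ligand, had 3 to 15 fragments per library. Its relative NRG2 had 633 to 760, or 2.23 to 2.53 FPKM (limma adjusted p = 0.880).

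The genes around ERBB2 on chromosome 17 are often copied together with it in tumours. Of 12 genes of the region (ERBB2 included) 8 were tested, none was called by limma and 1 fell by voom (3.84% of all tested genes). That gene was PPP1R1B, a phosphatase inhibitor also known as DARPP-32 and the highest of the region, at 126 and 128 FPKM with PBS and 115 and 112 FPKM under ketotifen (voom adjusted p = 0.0450, limma adjusted p = 0.148). MIEN1, next to ERBB2, had 40.1 to 46.3 FPKM, and GRB7, an adaptor that binds ERBB2, had 13.6 to 16.1 FPKM, with both ketotifen libraries lower (limma adjusted p = 0.193, voom adjusted p = 0.172). Levels therefore differed widely between neighbours, and ERBB2 was not the highest of them. Of 10 chaperone and adaptor genes of ERBB2, 8 were tested. None was called by limma (0.123% of all tested genes) or voom (7.53%). HSP90AB1 and HSP90AA1, chaperones that stabilise the receptor, were the highest, at 1265 to 1289 and 828 to 869 FPKM.

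In the somatostatin system SSTR1, not SSTR2, was the abundant receptor. SSTR1 was at 79.6 and 82.0 FPKM with PBS and 82.9 and 81.9 FPKM with ketotifen, 36.1 to 43.8 times the level of SSTR2. Its log2 change was 0.03 (limma adjusted p = 0.782). SSTR5 had 14 and 9 fragments with PBS and 13 and 3 with ketotifen, and SSTR3 had 0 to 9 per library. The ligand genes SST and CORT gave at most 1 and 4 fragments in any library. SSTR4 had no row.

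In the B7 family only CD276 and NCR3LG1 reached the test. NCR3LG1 encodes B7-H6, the ligand of the natural killer cell receptor NKp30. Its levels were close to those of CD276, with 4.53 and 4.88 FPKM under PBS and 4.02 and 3.97 FPKM under ketotifen. Its change was -0.19 (limma adjusted p = 0.21, voom adjusted p = 0.115). CD274, which encodes PD-L1, was at 0.397 and 0.506 FPKM with PBS and 0.516 and 0.734 FPKM with ketotifen, and CD276 was 5.17 to 11.5 times as high. CD274, at a mean under 1 FPKM, was not tested. The ratio of CD276 to CD274 was lower in both ketotifen libraries (6.51 and 5.17) than in both PBS libraries (11.5 and 9.23). The ratio of CD276 to SSTR2 was also lower in both (1.77 and 1.67 with ketotifen, 2.25 and 2.32 with PBS). Both ratios rest on the same CD276 values. Among the other ratios computed, EPCAM to CD24 and DLL3 to ERBB2 also separated the groups, and SSTR1 to SSTR2 did not. How often such ratios separate the groups over all genes was not determined. ICOSLG, the ligand of ICOS, gave 41 to 71 fragments per library, and CD86 and PDCD1LG2 gave at most 3.

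In the CEACAM family 2 relatives of CEACAM5 had a row. CEACAM1, an adhesion molecule, was at 0.350 to 0.421 FPKM. CEACAM19 was at 3.46 and 3.87 FPKM with PBS and at 2.75 and 3.42 FPKM with ketotifen (log2 change -0.19, limma adjusted p = 0.314). The other 9 relatives of CEACAM5 on the list had no row. Of the relatives of FOLH1, NAALADL1 had 0.843 to 1.14 FPKM, NAALADL2 29 to 45 fragments and NAALAD2 at most 1. Of the folate uptake genes the highest were SLC19A1, the reduced folate carrier, at 7.01 and 7.17 FPKM with PBS and 7.69 and 7.77 FPKM with ketotifen, and FOLR1, the folate receptor and itself an antibody target. FOLR1 had 6.29 and 4.54 FPKM with PBS and 3.18 and 4.04 FPKM with ketotifen, with a log2 change of -0.47 (limma adjusted p = 0.148, voom adjusted p = 0.115).

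**Figure D4:**
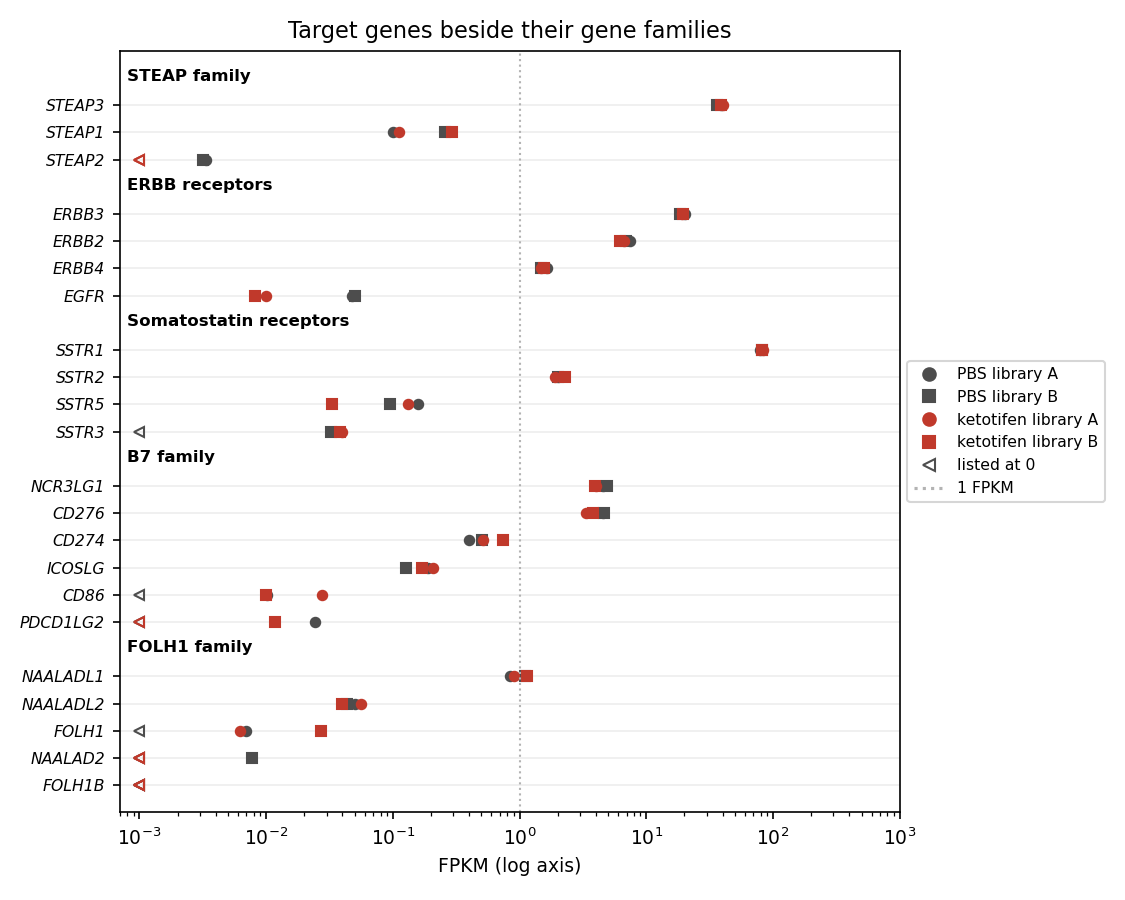
FPKM (log axis) of the members and of their relatives in the STEAP, ERBB, somatostatin receptor, B7 and FOLH1 families in the 4 libraries; open triangles at the left edge are libraries listed at 0. In the STEAP, ERBB and somatostatin receptor families a relative (STEAP3, ERBB3, SSTR1) lies above the target gene in every library.

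PSCA belongs to the LY6 and uPAR family of GPI-anchored proteins. Of its 13 relatives on the list 12 had a row and 5 were tested. None was called by limma (0.123% of all tested genes) or voom (7.53%). CD59, an inhibitor of complement, was the highest, at 6.65 to 8.02 FPKM, followed by LY6E with 118 to 156 fragments. PSCA, CEACAM5 and CD24 share the GPI anchor, and the genes that build and attach it were present throughout. Of 26 anchor genes 25 had a row and all 25 were tested. Limma called none (0.123% of all tested genes), and voom called none (7.53%). Both ketotifen libraries were higher in 10 of the 25 and lower in 4, beside 23.2% and 31.2% of all tested genes. The median log2 change was 0.04 over the 25 and -0.02 over all tested genes. GPAA1 and PIGT, subunits of the transamidase that attaches the anchor, were the highest, at 49.2 to 59.2 and 45.3 to 56.4 FPKM. Of the partners of CD24, HMGB1 had 69.6 to 74.1 FPKM and the adhesion molecule L1CAM had 47 and 60 fragments with PBS and 28 and 7 with ketotifen, at a level below the test. SIGLEC10 and SELP had no row.

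Beside 28 other surface targets with a row, CD24 had a higher mean than all but 4 (EPCAM, DLL3, CD46 and NCAM1). ERBB2 had 9 of them above it, CD276 and SSTR2 12 each, STEAP1 14, FOLH1 22 and STEAP2 26. EPCAM, an epithelial adhesion molecule, had the highest level, with 232 and 228 FPKM under PBS and 243 and 240 FPKM under ketotifen. DLL3 had 199 and 177 FPKM with PBS and 202 and 205 FPKM with ketotifen, 25.8 to 33.0 times the level of ERBB2 and 3.96 to 5.59 times that of CD24. Its change was 0.12 (limma adjusted p = 0.339). Of the 28, 12 were tested, limma called none, and voom called 3 lower and 0 higher, beside 3.84% lower and 3.69% higher over all tested genes. The 3 were NCAM1, a neural adhesion molecule (52.0 and 51.2 FPKM with PBS, 44.4 and 43.9 under ketotifen; voom adjusted p = 0.00803), MUC1, a transmembrane mucin (874 and 1132 fragments with PBS, 841 and 661 under ketotifen; voom adjusted p = 0.0142), and IGF1R, the receptor of insulin-like growth factor (5.79 and 6.05 FPKM with PBS, 5.20 and 4.83 under ketotifen; voom adjusted p = 0.0365). Their limma adjusted p-values were 0.107, 0.119 and 0.192.

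**Figure D5:**
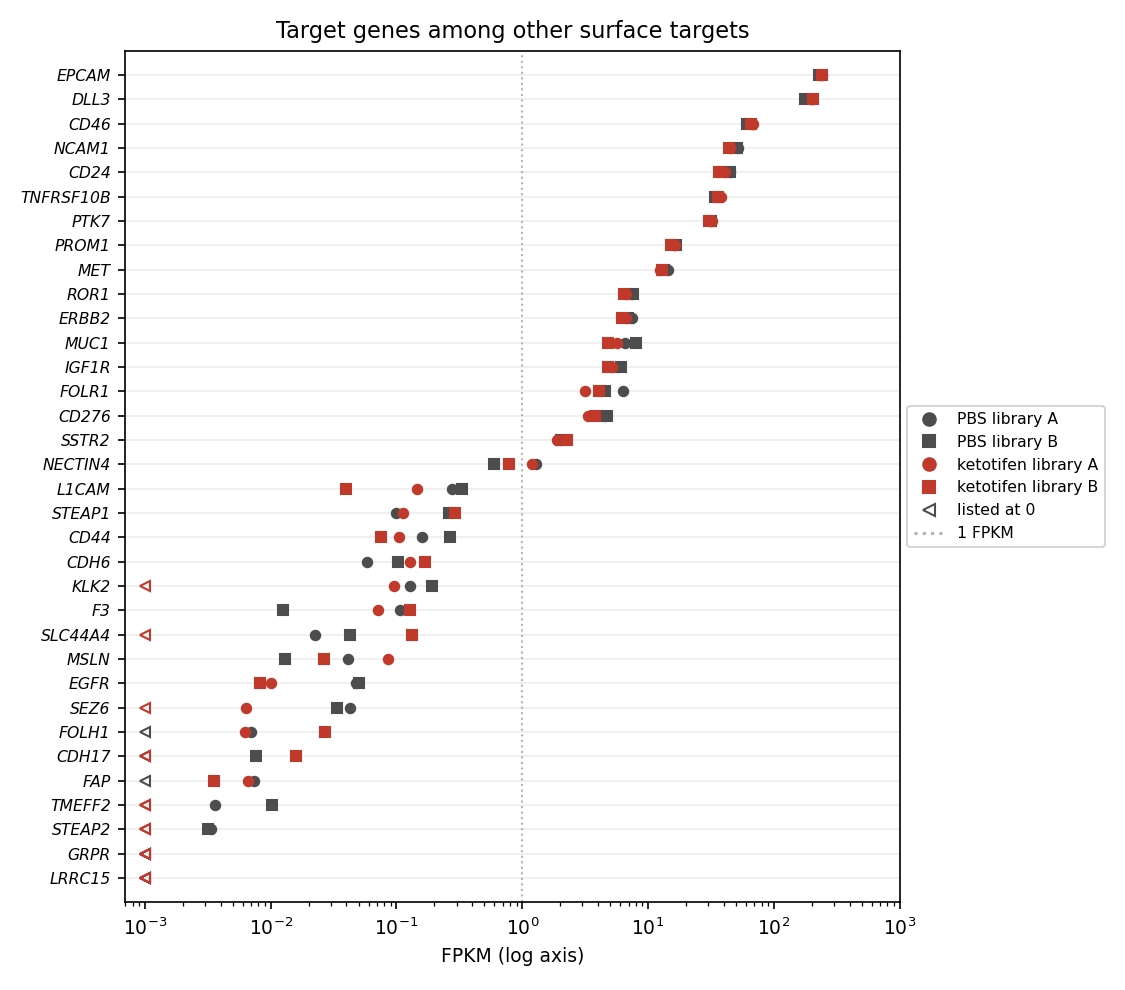
FPKM (log axis) in the 4 libraries of other surface targets and of the 7 members with a row, ordered by mean, with 1 target not reported here left out; open triangles at the left edge are libraries listed at 0. CD24 lies below EPCAM, DLL3, CD46 and NCAM1. STEAP1 lies near the middle of the order, and FOLH1 and STEAP2 lie in the lower part with genes of a few fragments.

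Known regulators of luminal and neuroendocrine identity differed in level. FOXA1, a pioneer factor of luminal cells, had 5.92 to 7.96 FPKM and HOXB13, a prostate lineage factor, 2.72 to 3.58 FPKM. Of 16 regulators 13 were tested; limma called none and voom called 1 lower (3.84% of all tested genes). It was MYCN (370 and 387 FPKM with PBS, 327 and 332 under ketotifen; voom adjusted p = 0.0112, limma adjusted p = 0.123), the gene used to transform the line. Next in level came POU2F3, a factor of tuft cells, at 185 to 207 FPKM.

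Of the neuroendocrine markers, INSM1 (19.7 to 22.9 FPKM), NCAM1 and UCHL1 were expressed, while CHGA, CHGB and NEUROD1 gave at most 8 fragments in any library and SYP 31 to 50. UCHL1, a neuronal hydrolase and the highest of the list, had 458 and 434 FPKM with PBS and 487 and 490 FPKM under ketotifen, with both ketotifen libraries higher (voom adjusted p = 0.0936, limma adjusted p = 0.226). Of the 11 neuroendocrine markers 5 were tested, and limma called none. Voom called 2 lower and 0 higher, beside 3.84% lower and 3.69% higher over all tested genes. The 2 were NCAM1 and ENO2, a neuronal enolase. ENO2 had 2.76 and 3.10 FPKM with PBS and 2.07 and 1.60 FPKM under ketotifen (voom adjusted p = 0.0449, limma adjusted p = 0.102). The 6 epithelial markers summed to 1312 and 1246 FPKM with PBS and 1369 and 1341 FPKM with ketotifen. All 6 were tested, limma called none and voom called 1 lower (3.84% of all tested genes). It was the adhesion gene CDH1 (voom adjusted p = 0.0195, limma adjusted p = 0.136). Of 7 immune markers 6 had a row and summed to 2.92 and 4.14 FPKM with PBS and 3.05 and 3.18 FPKM with ketotifen, nearly all from CD68, with PTPRC at 6 fragments or fewer. The 6 fibroblast markers summed to 2.85 and 3.14 FPKM with PBS and 2.56 and 2.16 FPKM with ketotifen, nearly all from COL1A1, with PDGFRB listed at 0 in every library. CD24 and CD276 are also expressed by immune and stromal cells. All 4 libraries are of the single line LASCPC-01, and the labels name no other cells. Of the immune and of the fibroblast markers, 1 each reached a mean of 1 FPKM. These were CD68 with 2.77 to 3.97 FPKM and COL1A1 with 1.95 to 2.75 FPKM, while PTPRC and PDGFRB were at or near 0. The part of these markers in the results was not tested. The 7 luminal markers with a row summed to 19.4 to 20.8 FPKM over the 4 libraries, mostly TMPRSS2. The 4 endothelial markers summed to at most 0.220 FPKM and the 2 basal markers with a row to at most 0.0926 FPKM. The 3 mast cell markers with a row summed to 3.91 and 3.86 FPKM with PBS and 3.33 and 2.97 FPKM with ketotifen. Nearly all of this was KIT, a receptor kinase that neither test called (limma adjusted p = 0.186, voom adjusted p = 0.114). CPA3 gave at most 3 fragments in any library and TPSAB1 at most 1.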

How the data were processed

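Polyadenylated RNA of 4 libraries was sequenced with a stranded kit, per the labels' protocols. Tools named in the submitters' processing notes are HISAT2, HTSeq and fastp, with the build GRCh38. Annotation, gene lengths and strand use in counting: not given in the sources used here. The authors deposited 1 FPKM value per gene and library. The columns carry the letters A and B, which no label holds, so libraries are not paired; nothing says whether they came from separate cultures, and p-values measure only the spread between them.

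The FPKM values were tested with limma 3.58.1 (R 4.3.3, intensity trend, two-sided) on log2(FPKM + 1) for the 10586 genes whose mean reached 1 FPKM, and Benjamini-Hochberg adjusted p under 0.05 was called. Fold changes on this scale understate those of low genes. Whole fragment counts were recovered (Python 3.11.15): relative depths from the commonest ratios of low values, then the library totals and gene lengths that make counts whole within 0.05. This gave counts for 16103 of 16104 nonzero genes and all 10586 tested genes (100%). Where a gene's counts share a common factor, the recovered counts may be too low by it. The recovered counts sum to 97.7% of each total. Voom was run on them. Both tests were checked on simulated data whose planted changes were larger than any measured here for a member. Changes of the members' size were not checked.

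Libraries correlated at 0.993 to 0.998 over genes. Members and lists were chosen with earlier results of these data known. Named are all members, and of each list the called genes, the 2 highest and the relatives of members. FOXA1, HOXB13, GRB7, NRG1, NRG2, L1CAM, the single marker genes and genes called only by voom were chosen after their values were seen. Some genes of the lists are counted but not reported by name here. Coordinates and promoters are from RefSeq (GRCh38.p14).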

Additional observations from a re-analysis of the deposited data

How the results depend on the processing

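Against 13 genes called in the reported fit, 0 were called with no filter on low values (limma; 2295 genes at an unadjusted p under 0.05), 27 with a mean of at least 5 FPKM, 3 after median ratio scaling, 3 after quantile normalization and 797 by voom with the filter of 1 FPKM. Leaving out 1 library each gave 10 to 1936 calls: 1936 without PBS library A, 421 without PBS library B, 28 without ketotifen library A and 10 without ketotifen library B. The cause was not tested. Over the other settings CD276 ranged from -0.38 to -0.17 and CD24 from -0.29 to -0.14, and ERBB2 from -0.17 to -0.08 with no call. CD24 passed by voom (-0.22) and, like CD276, without PBS library A; leaving out single libraries moved CD24 from -0.29 to -0.14 and CD276 from -0.37 to -0.23. SSTR2 turned to -0.0092 when libraries were scaled to the same sum and to -0.062 without ketotifen library B, within a range of -0.062 to 0.11 when libraries were left out. CD276 and SSTR2 were not tested with a mean of at least 5 FPKM. No label ties the letters of the columns to replicate numbers. With the letter as a replicate block, chosen after seeing the data, limma called 637 genes (406 higher, 231 lower) and CD24 passed (-0.21, adjusted p = 0.0489), while CD276 (adjusted p = 0.0629), ERBB2 and SSTR2 did not. The A minus B differences of the 2 groups correlated at 0.102 over genes. Depth limits the text on STEAP1, FOLH1 and STEAP2, which rest on 32, 6 and 2 fragments in all.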
